A study of Hevea brasiliensis with 21 samples.

Results

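CL1028Contig8 and CL10740Contig1 are 2 of the 86941 contigs of the reference transcriptome to which latex reads of the rubber tree (Hevea brasiliensis) were mapped. Their best BLASTX matches were castor bean (Ricinus communis) proteins named as a putative tropinone reductase for CL1028Contig8, which is 1082 bases long, and as a putative reticuline oxidase precursor for CL10740Contig1, which is 1145 bases long. The 2 contigs were picked by name when results of these libraries were already known, and which of their values led to the choice is not recorded. All of their values are therefore given as a description, without a test. Both contigs passed the filter on low counts in all 9 comparisons and both tests of a difference between responses. The contigs have no genome coordinates in the files, and no sequence of them was used here.

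Tropinone reductases are short-chain dehydrogenases that use NADPH to reduce the ketone group of tropinone, at a branch point of tropane alkaloid synthesis in the nightshade family. Related plant enzymes of the same family act on other substrates. Reticuline oxidase, also called berberine bridge enzyme, is an FAD-linked oxidase that turns reticuline into scoulerine in the benzylisoquinoline alkaloid synthesis of the poppy family, and its relatives in other plants include oxidases of sugars and of lignin precursors. These roles are known from other species, and neither contig is shown by its annotation to act on an alkaloid in Hevea. Rubber is made in laticifers, a network of fused cells in the bark, and the latex sampled here is what these cells exude from a tapping cut.

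The 21 latex libraries formed 7 groups of 3 biological replicates, all from trees labelled as wild type. Ethephon is a compound that releases ethylene and is put on the bark to prolong latex flow, and Tapping Panel Dryness (TPD) is the partial or full loss of flow along the tapping cut. In clone PB217, the groups were TPD trees with ethephon and control trees without it at month 36 of tapping, and healthy trees with ethephon and control trees without it at month 1. In clone PB260, all at month 36, they were severe TPD trees with ethephon, slight TPD trees with ethephon and control trees without ethephon, and the sample records call the slight TPD trees healthy. Ethephon trees received it 12 times a year. The PB217 conditions were read from sample titles of the same form as those of PB260, and the titles also carry T_D1 in PB217 and S_D2 in PB260. PB260 trees had a semi-spiral cut that was tapped on alternate days. The sources used here do not explain T_D1, so a difference in tapping system cannot be told apart from clone. At month 36, ethephon trees of both clones were harvested on another day than control trees. Ethephon therefore cannot be told apart from the day of harvest, nor from dryness in PB217. In PB260, slight TPD trees with ethephon also had more dryness than control trees. Month 1 and month 36 libraries came from different harvests.

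The files hold the number of read pairs counted on each contig, 16102321 to 23126417 pairs per library, from reads of which 95.1 to 97.7% mapped. Levels are given as CPM, counted pairs scaled to a common library total, after TMM normalization over the 21 libraries, with the SD between 3 trees. Both contigs of HbTCTP1, which the authors name as an expression marker of TPD from earlier work, were detected. In their own data, the authors did not find HbTCTP1 associated with TPD. CL1Contig7138 had group means of 1786 to 3298 CPM and CL1Contig21026 of 3.55 to 6.50 CPM. The contig of the latex allergen Hev b 4, CL10238Contig1, stood at 2.99 to 37.1 CPM. Both contigs that match a photosystem protein of green cells had group means of at most 0.392 CPM. Contigs with a best match in powdery mildew, of which 8 of 62 had any pair, summed to 5.05–11.8 CPM in severe TPD trees, 7.63–11.6 CPM in slight TPD trees with ethephon and 13.4–15.5 CPM in PB260 control trees, and to 1.61–6.44 CPM in PB217. A single contig alone reached a group mean of 13.8 CPM, and only 1 of the 62 was tested in each comparison. The sums are therefore not read as a load of mildew. Replicate 2 of the dry PB217 trees had the lowest mean correlation with the other trees of its group (0.924, against 0.975 for the highest library). In bulk latex, a change in the share of a cell type and a change in RNA per cell cannot be told apart.

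The tropinone reductase contig was highest in ethephon-treated PB260 trees. Its level averaged 27.4 ± 1.82 CPM in slight TPD trees with ethephon, 21.6 ± 3.99 in severe TPD trees, 15.7 ± 6.69 in dry PB217 trees, 10.7 ± 2.91 in PB260 control trees, 8.99 ± 2.07 in PB217 control trees of month 1, 7.60 ± 0.582 in PB217 ethephon trees of month 1 and 5.88 ± 1.33 in PB217 control trees of month 36 (SD, n = 3). In that order, all 6 pairs of neighbouring groups overlapped. Per length, CL1028Contig8 stood above 86.0% of the 34213 contigs that passed the filter over the 21 libraries in slight TPD trees with ethephon, and above 52.8% of them in PB217 control trees of month 36.

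The reticuline oxidase contig had another order of groups. CL10740Contig1 averaged 11.1 ± 6.76 CPM in dry PB217 trees, 7.86 ± 2.20 in PB217 ethephon trees of month 1, 7.12 ± 2.29 in PB217 control trees of month 1, 4.28 ± 2.52 in severe TPD trees, 3.36 ± 1.01 in slight TPD trees with ethephon, 3.35 ± 1.42 in PB217 control trees of month 36 and 1.16 ± 0.359 in PB260 control trees (SD, n = 3). Of its 6 pairs of neighbouring groups 5 overlapped, and the PB260 control trees lay apart below the rest. Between PB217 control trees of month 36 and PB260 control trees, 21.9% of contigs separated in that direction. On library totals these groups overlapped for CL10740Contig1. Per length, it stood above 66.7% of contigs in dry PB217 trees and above 11.6% in PB260 control trees.

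**Figure D1:**
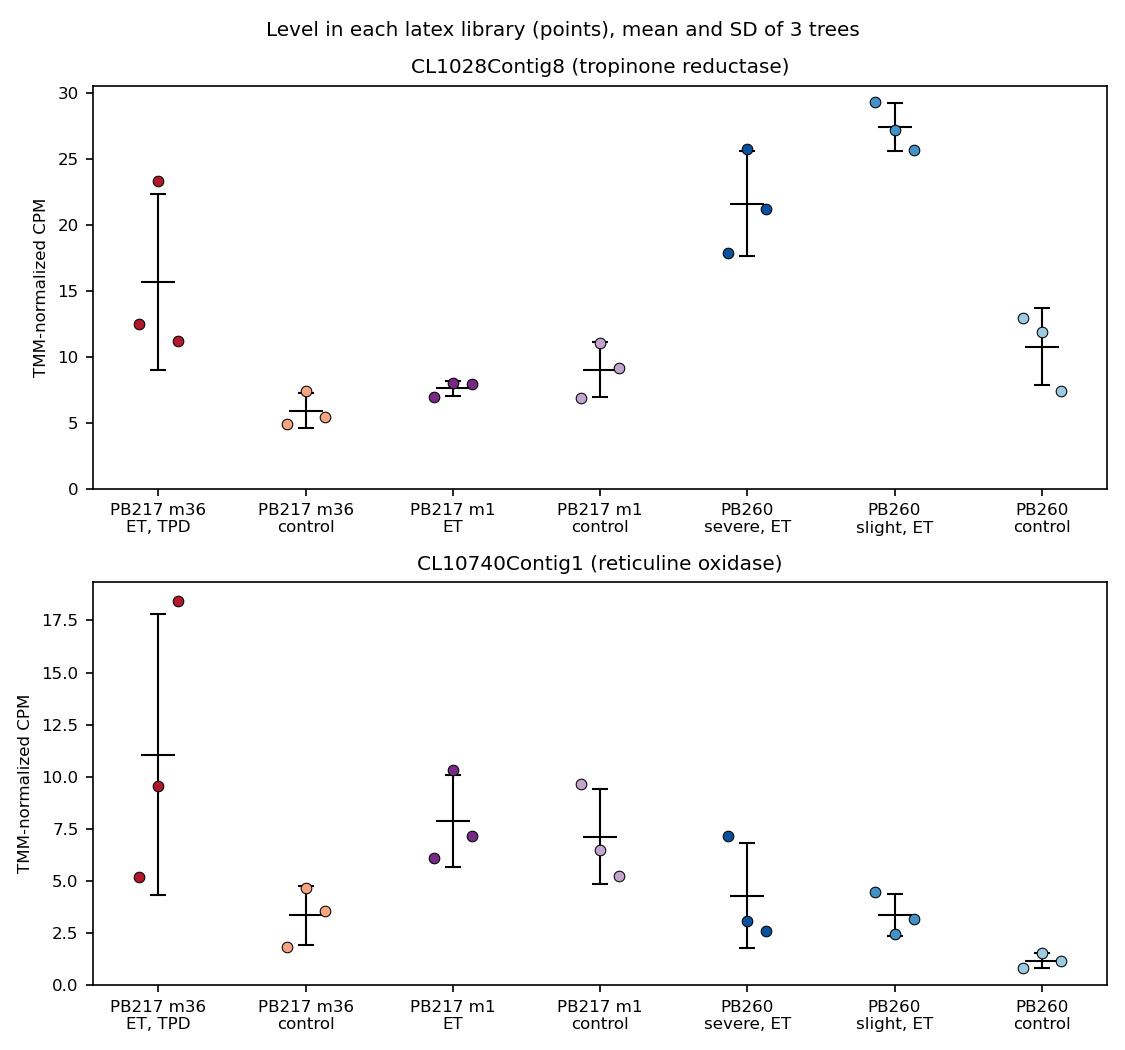
TMM-normalized CPM of CL1028Contig8 (top) and CL10740Contig1 (bottom) in each of the 21 libraries, by group, with ethephon as ET and months of tapping as m1 and m36; points are trees and bars are the mean and SD of 3 trees. CL1028Contig8 peaked in slight TPD trees of PB260 with ethephon, at 25.6 to 29.3 CPM, and CL10740Contig1 in dry PB217 trees, at 5.18 to 18.4 CPM.

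Ethephon was compared with no ethephon in PB260 trees with slight TPD. In the paper, the dry part of the tapping cut was longer in each of these treated trees than in the control trees. CL1028Contig8 had 29.3, 27.2 and 25.6 CPM (761, 541 and 682 pairs) in slight TPD trees with ethephon, against 12.9, 11.9 and 7.43 CPM (318, 233 and 176 pairs) in control trees. Every treated tree lay above every control tree, with a log2 fold change of 1.37 ± 0.21 (standard error of the edgeR fit, as for all fold changes here). CL10740Contig1 had 4.46, 2.46 and 3.16 CPM (116, 49 and 84 pairs) in slight TPD trees with ethephon, against 0.812, 1.53 and 1.14 CPM (20, 30 and 27 pairs) in control trees. Here too the groups did not overlap, and the log2 fold change was 1.55 ± 0.35. Such a separation upwards was found in 21.0% of the 30522 contigs tested. By size of fold change, 3.93% of contigs lay above CL1028Contig8 and 3.01% above CL10740Contig1. On library totals in place of TMM, the median of all contigs moved up by 0.18 on the log2 scale, and the log2 ratio of group means was 1.57 for CL1028Contig8 and 1.76 for CL10740Contig1. Slight TPD trees with ethephon had TMM factors of 1.21 to 1.39 and 19.8 to 21.2% of reads with several hits, against factors of 1.05 to 1.20 and 22.5 to 23.5% in control trees, and the part of these differences in the fold changes was not tested.

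Severe and slight TPD trees of PB260, all with ethephon and harvested on the same day, differed less. CL1028Contig8 had 17.8, 25.8 and 21.2 CPM (462, 511 and 426 pairs) in severe TPD trees, against the 25.6 to 29.3 CPM of slight TPD trees, and the overlap came from 1 severe TPD tree. On library totals the groups did not overlap, with 20.8 to 25.8 CPM in severe TPD trees against 31.0 to 40.8 CPM in slight TPD trees. The share of all contigs that separate so on library totals was not counted, so this is not read as a result about the contig. Its log2 fold change was -0.42 ± 0.18. CL10740Contig1 had 7.17, 3.07 and 2.58 CPM (186, 61 and 52 pairs) in severe TPD trees, against 2.46 to 4.46 CPM in slight TPD trees, a log2 fold change of 0.30 ± 0.44. The sign for CL10740Contig1 rested on severe TPD replicate 1, without which the value was -0.35. The median of all contigs moved by -0.22 on library totals, and the log2 ratio of group means was -0.61 for CL1028Contig8 and 0.12 for CL10740Contig1.

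Against control trees, severe TPD trees had higher levels of both contigs, with no overlap of the groups. This was so in 18.7% of contigs in that direction. The log2 fold change was 0.99 ± 0.24 for CL1028Contig8 and 1.89 ± 0.48 for CL10740Contig1, or 1.21 for CL10740Contig1 without severe TPD replicate 1. These control trees are also those of the comparison with slight TPD trees, so the fold changes against them are not independent.

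**Figure D2:**
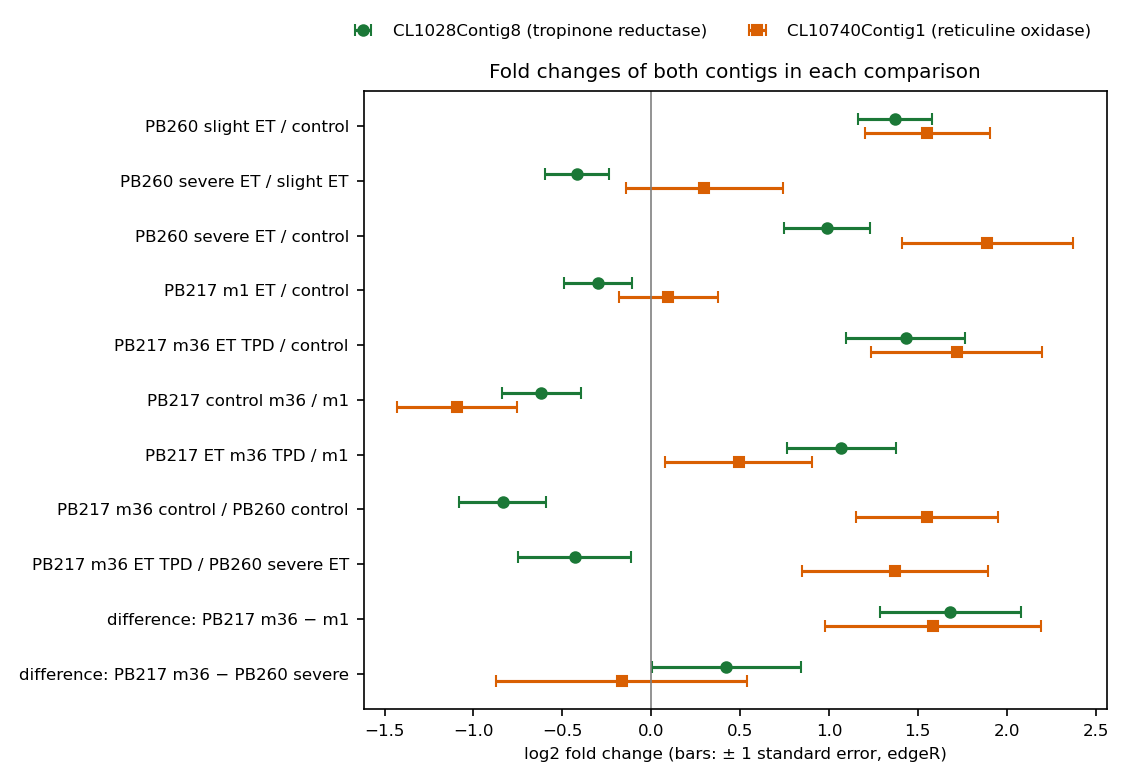
Log2 fold changes with 1 standard error of CL1028Contig8 (circles) and CL10740Contig1 (squares) in 9 comparisons of groups, each named as the group on top of the fold change over the other group, and in the 2 differences between responses (bottom rows). At month 36 both contigs were higher in ethephon trees than in control trees of either clone, and these groups also differed in harvest day and dryness. At month 1 their fold changes were -0.30 and 0.10.

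In PB217 ethephon trees were compared with control trees at month 1, among healthy trees harvested on a single day. Clone, the code in the titles and months of tapping differ from those of the PB260 comparison. CL1028Contig8 had 6.93, 7.98 and 7.88 CPM (126, 102 and 117 pairs) in ethephon trees, against 6.87, 11.0 and 9.11 CPM (91, 224 and 173 pairs) in control trees. CL10740Contig1 had 6.10, 10.3 and 7.14 CPM (111, 132 and 106 pairs) in ethephon trees, against 9.66, 6.48 and 5.21 CPM (128, 132 and 99 pairs) in control trees. The groups overlapped for both contigs. The log2 fold changes were -0.30 ± 0.19 for CL1028Contig8 (-0.14 without control replicate 2) and 0.10 ± 0.28 for CL10740Contig1, which turned to -0.17 without ethephon replicate 2 and to -0.10 without control replicate 3. On library totals the median of all contigs moved by -0.16, and the log2 ratios of group means were -0.44 for CL1028Contig8 and -0.04 for CL10740Contig1.

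At month 36, dry PB217 trees with ethephon were compared with control trees. CL1028Contig8 had 12.5, 23.3 and 11.1 CPM (277, 638 and 220 pairs) in dry trees, against 4.86, 7.38 and 5.39 CPM (85, 108 and 77 pairs) in control trees. All dry trees were above all control trees, replicate 2 by the widest margin, and the log2 fold change was 1.43 ± 0.33. CL10740Contig1 had 5.18, 9.55 and 18.4 CPM (115, 261 and 364 pairs) in dry trees, against 1.83, 4.64 and 3.57 CPM (32, 68 and 51 pairs) in control trees, a log2 fold change of 1.72 ± 0.48. Its groups did not overlap either, but replicate 1 of the dry trees came close to replicate 2 of the control trees, and the highest dry tree was replicate 3 and not replicate 2. Separation upwards was found in 19.0% of the 29124 contigs tested, and 3.36% of contigs had a larger fold change than CL1028Contig8 and 2.17% than CL10740Contig1. Dry trees had TMM factors of 0.978 to 1.27 and 19.1 to 22.5% of reads with several hits, against factors of 0.820 to 0.873 and 23.3 to 23.8% in control trees. On library totals in place of TMM, the median of all contigs moved up by 0.38 on the log2 scale and the log2 ratio of group means was 1.89 for CL1028Contig8 and 2.09 for CL10740Contig1, against 1.41 and 1.72 with TMM. What part these differences between libraries had in the fold changes was not tested.

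**Figure D3:**
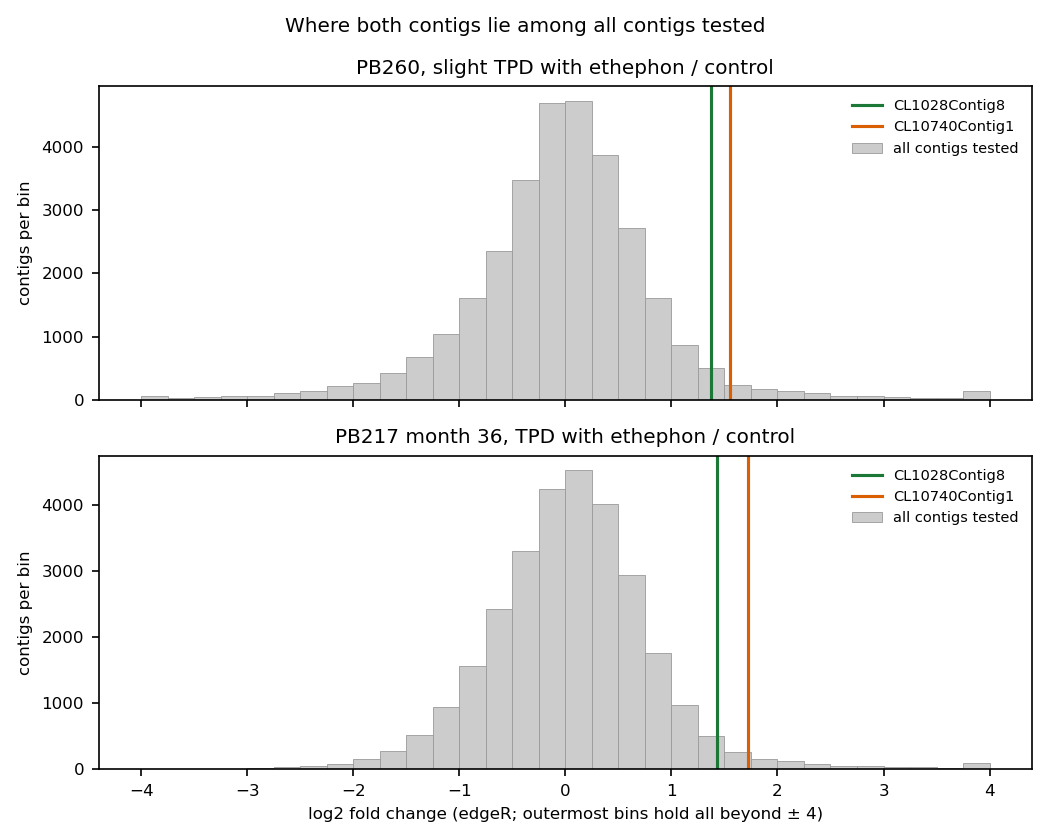
Number of contigs per bin of log2 fold change (bin width 0.25) in slight TPD trees with ethephon over control trees of PB260 (top, 30522 contigs) and in dry over control trees of PB217 at month 36 (bottom, 29124 contigs), with CL1028Contig8 and CL10740Contig1 as vertical lines. Both lines lie on the upper flank in both comparisons, at 1.37 and 1.55 in PB260 and at 1.43 and 1.72 in PB217.

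The spread between trees exceeded that of counting in most groups. In dry PB217 trees, the coefficient of variation was 42.7% for CL1028Contig8 and 61.1% for CL10740Contig1, against 5.14% and 6.37% from counting error alone. Slight TPD trees with ethephon were alike for CL1028Contig8, with 6.65% against 3.89% from counting, and PB217 ethephon trees of month 1 varied by 7.65%, less than the 9.33% of counting. For CL10740Contig1, counting error alone was 19.7% in PB260 control trees, where 20 to 30 pairs were counted, so its fold changes against these trees rest on few pairs.

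Between month 1 and month 36, control trees of PB217 had lower mean levels of both contigs. CL10740Contig1 had 1.83 to 4.64 CPM in control trees of month 36, against 5.21 to 9.66 CPM in control trees of month 1, with no overlap and a log2 fold change of -1.09 ± 0.34. Separation downwards was found in 24.3% of contigs in that comparison. CL1028Contig8 had 4.86 to 7.38 CPM in control trees of month 36, against 6.87 to 11.0 CPM in control trees of month 1, which overlapped, with a log2 fold change of -0.62 ± 0.22. Both HbTCTP1 contigs were called higher in control trees of month 36 than of month 1, CL1Contig7138 by 0.80 (adjusted p = 0.021 from edgeR) and CL1Contig21026 by 0.81 (adjusted p = 0.028), where 35.3% of contigs were called. These calls were lost in 3 of 6 fits with a tree left out for CL1Contig7138 and in 4 of 6 for CL1Contig21026. The Hev b 4 contig CL10238Contig1 had a log2 fold change of 0.035 between the same control trees (adjusted p = 0.96 from edgeR). What part such shifts had in the levels of both enzymes' contigs was not tested. Among trees with ethephon, CL1028Contig8 was higher in dry trees of month 36 than in healthy trees of month 1, with a log2 fold change of 1.07 ± 0.31 (0.71 without dry replicate 2) and no overlap, as in 21.5% of contigs. CL10740Contig1 had 5.18 to 18.4 CPM in dry trees of month 36, against 6.10 to 10.3 CPM in ethephon trees of month 1, and its log2 fold change of 0.49 ± 0.41 became -0.0061 without dry replicate 3. The Hev b 4 contig CL10238Contig1 was called lower in dry trees of month 36 than in ethephon trees of month 1 (log2 fold change -2.75, adjusted p = 0.021 from edgeR, where 24.1% of contigs were called), a call lost in 3 of 6 fits with a tree left out. The HbTCTP1 contigs CL1Contig7138 and CL1Contig21026 had log2 fold changes of 0.037 and 0.86 there, neither of them called (adjusted p = 0.96 and 0.17 from edgeR). On library totals the median of all contigs in the comparison of ethephon trees rose by 0.51, and the log2 ratio of group means was 1.67 for CL1028Contig8 and 1.03 for CL10740Contig1. The fold change of ethephon over control trees at month 36, where the ethephon trees were dry, was set against that at month 1. The difference (month 36 minus month 1) was 1.68 ± 0.40 on the log2 scale for CL1028Contig8 and 1.59 ± 0.61 for CL10740Contig1. It was 1.27 for CL1028Contig8 without dry replicate 2 and 1.04 for CL10740Contig1 without dry replicate 3.

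The clones were compared at month 36, and the 2 contigs differed in opposite directions. CL1028Contig8 had 4.86 to 7.38 CPM in PB217 control trees, against 7.43 to 12.9 CPM in PB260 control trees, a log2 fold change of -0.84 ± 0.25, and the highest PB217 tree lay just below the lowest PB260 tree. CL10740Contig1 had 1.83 to 4.64 CPM in PB217 control trees, against 0.812 to 1.53 CPM in PB260 control trees, a log2 fold change of 1.55 ± 0.40. Separation was found downwards in 24.0% and upwards in 21.9% of contigs, and on library totals the groups overlapped for CL10740Contig1. The median of all contigs then moved by -0.34, and the log2 ratios of group means were -1.23 for CL1028Contig8 and 1.15 for CL10740Contig1. Between dry PB217 trees and severe TPD trees of PB260, the groups overlapped for both contigs, with log2 fold changes of -0.43 ± 0.32 for CL1028Contig8 and 1.37 ± 0.52 for CL10740Contig1. Leaving out single dry trees moved the value of CL1028Contig8 between -0.84 and -0.17, and CL10740Contig1 was at 0.85 without dry replicate 3. The reference contigs are of PB260, and whether PB217 reads map to them less well was not tested. The response of dry PB217 trees minus that of severe TPD trees was 0.42 ± 0.42 for CL1028Contig8 (0.03 without dry PB217 replicate 2) and -0.17 ± 0.71 for CL10740Contig1, which turned to 0.46 without severe TPD replicate 1, to 0.16 without dry PB217 replicate 1, to 0.15 without PB217 control replicate 2 and to 0.06 without PB260 control replicate 1.

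Compared per length, the reticuline oxidase contig stood below the tropinone reductase contig in every PB260 library. The ratio of CL10740Contig1 to CL1028Contig8 in CPM per kb was 0.356 to 1.56 over the 12 PB217 libraries, against 0.0594 to 0.380 over the 9 PB260 libraries. It was above 1 in 3 libraries, namely replicate 3 of the dry trees, at 1.56, replicate 1 of the control trees of month 1, at 1.33, and replicate 2 of the ethephon trees of month 1, at 1.22. Across the 21 libraries the log2 levels of the 2 contigs had a Pearson correlation of -0.05. Within a clone it was 0.54 over the 12 PB217 libraries and 0.65 over the 9 PB260 libraries, where the libraries of a clone share groups that differ in ethephon and month.

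**Figure D4:**
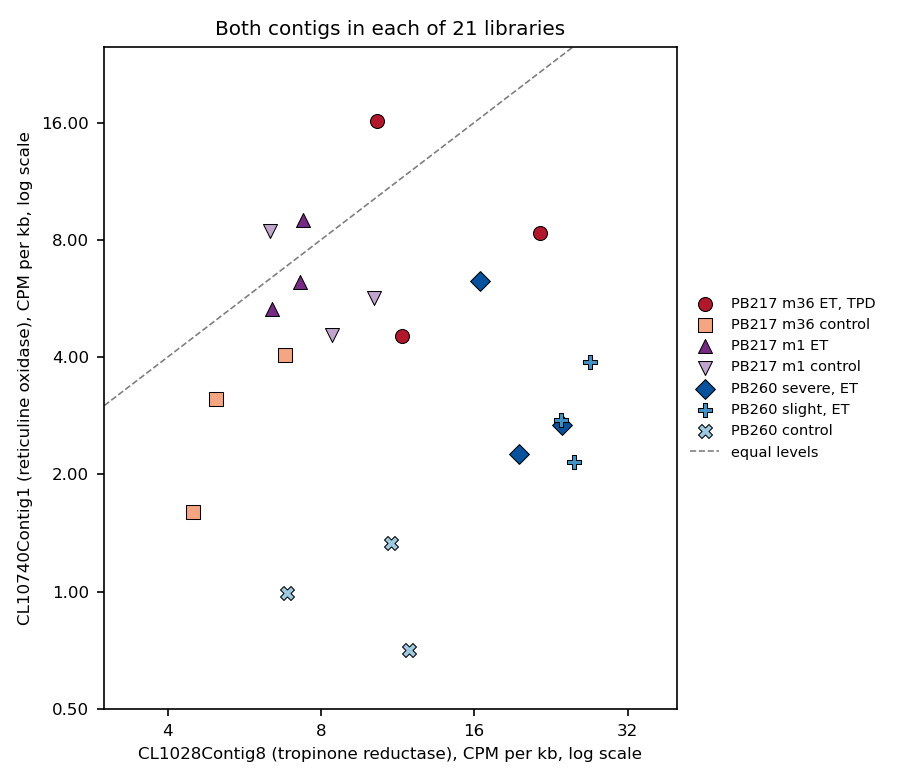
CPM per kb of CL1028Contig8 (x axis) and CL10740Contig1 (y axis) in each of the 21 libraries, both on a log scale, with a symbol for each group and a dashed line at equal levels. PB260 libraries lie below the line with ratios of 0.0594 to 0.380, and 3 PB217 libraries lie above it.

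The part of the annotation held here named 11 contigs as short-chain dehydrogenases, CL1028Contig8 included, and 3 as FAD-linked oxidases, CL10740Contig1 included. Neither other FAD-linked oxidase reached the filter, and CL10715Contig1, which matches gulonolactone oxidase of vitamin C synthesis, had at most 2 pairs in a library. Of the 10 other short-chain dehydrogenases 8 had any pair and 3 were tested. CL10303Contig2 had 0.346, 0.402 and 0.226 CPM in slight TPD trees with ethephon, 6 to 9 pairs each, against 2.60, 1.32 and 1.18 CPM in PB260 control trees. It passed the filter there only through the control trees, which fixes its direction, so its fold change is not read as a result, and without any one of the control trees it no longer passed. In severe TPD trees CL10303Contig2 was at 1.14 to 1.66 CPM, with a log2 fold change of -0.22 over control trees (adjusted p = 0.76 from edgeR, where 11.5% of contigs were called). Against slight TPD trees it likewise passed only through the severe TPD trees, which fixes its direction. Its calls there by the exact test, DESeq2 and the fit without a filter are not read as a result. Of the 3, edgeR called 0 between severe and slight TPD trees, where 0.133% of contigs were called.

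In PB217 CL10303Contig2 was above the filter in every tree, and at month 36 it was lower in dry trees with ethephon than in control trees. CL10303Contig2 had 4.19, 2.93 and 6.69 CPM in dry trees, against 11.8, 19.8 and 12.5 CPM in control trees, a fall by 1.68 (standard error 0.34, adjusted p = 0.026 from edgeR, where 8.94% of contigs were called), with adjusted p between 0.073 and 0.097 without replicate 1 of the dry trees or any one control tree. At month 1 its log2 fold change was 0.19 (adjusted p = 0.86), and edgeR's quasi-likelihood test called none of the 27226 contigs (0%), with 2221 at an unadjusted p under 0.05, 88 called by the exact test and 55 by DESeq2. Its level in controls was itself 1.67 higher on the log2 scale at month 36 than at month 1 (adjusted p = 6.4e-04 from edgeR) and 3.13 higher in PB217 than in PB260 controls (adjusted p = 1.4e-04, where 29.2% were called). In dry PB217 trees it was 1.66 higher than in severe TPD trees (adjusted p = 0.034, where 9.52% were called). CL1039Contig1 and CL1039Contig8, of which CL1039Contig8 is similar to 3-ketodihydrosphingosine reductase of sphingolipid synthesis, had log2 fold changes of -0.07 and -0.08 in slight TPD trees with ethephon and of -0.11 and 0.67 in dry PB217 trees, none of them called. CL1039Contig8 had 8 to 17 pairs in PB217 control trees of month 36, against 25 to 36 in control trees of month 1 and 21 to 39 in dry trees. PB260 control trees had 22 to 30 pairs. In each comparison with the PB217 control trees of month 36, CL1039Contig8 passed the filter only through the other group, which fixes its direction. Its fold changes there are therefore not read as a result.

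The wider list of 25 contigs with an oxidoreductase term held 23 others, of which 7 were tested in PB260 and 20 had any pair. In slight TPD trees with ethephon 0 of these 7 were called higher and 2 lower, where 27.6% of contigs were called, 14.4% of all contigs lower, with a median log2 fold change of -0.066 beside 0.0017 over all contigs tested. One of these was CL10303Contig2, whose direction the filter fixed, and the other was CL1037Contig4, a contig of squalene epoxidase, the enzyme of sterol synthesis that oxidizes squalene. It had 6.04, 9.49 and 11.6 CPM in slight TPD trees with ethephon, against 18.6, 19.7 and 19.2 CPM in control trees, a fall by 1.08 (standard error 0.22, adjusted p = 0.0072 from edgeR). In dry PB217 trees 0 of 7 were called higher and 1 lower, where 8.94% of contigs were called, with a median of 0.0056 beside 0.057 over all contigs. In the test of the difference between months in PB217, 2 of 8 were called, both with the lower response at month 36, where 6.58% of contigs were called. They were CL10303Contig2, at -1.91 (adjusted p = 0.034 from edgeR), and CL1037Contig4, at -1.17 (adjusted p = 0.037), and each call was lost in 9 of 12 fits with a library left out.

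Contigs that carry the number CL1028 may share sequence, and as the authors left out reads that hit several contigs, a level could be understated, which was not tested. The names differ within the cluster. Of its 10 contigs 6 match an unnamed protein of Jatropha curcas, CL1028Contig10 matches TWIN LOV 1, a protein with the light-sensing LOV domains of plants, and only CL1028Contig8 matches a tropinone reductase. Of the 9 others 3 were tested. CL1028Contig7 had 4.27, 5.57 and 3.20 CPM in slight TPD trees with ethephon, against 8.04, 8.56 and 6.46 CPM in PB260 control trees, and its log2 fold change of -0.81 ± 0.24 (adjusted p = 0.036 from edgeR) was not called in 4 of 6 fits with a tree left out. It thus moved against CL1028Contig8 there. In dry PB217 trees it had 15.5, 33.6 and 18.0 CPM, against 9.37, 11.1 and 8.89 CPM in control trees, and its log2 fold change of 1.21 ± 0.31 (adjusted p = 0.045 from edgeR) was also lost in 4 of 6 such fits and was 0.79 without dry replicate 2. Between dry PB217 trees and severe TPD trees of PB260, CL1028Contig7 was higher by 2.05 ± 0.36 on the log2 scale (adjusted p = 0.0075 from edgeR, where 9.52% of contigs were called).

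The 2 other tested contigs of the cluster were called between months, and CL1028Contig4 also between clones. CL1028Contig4 and CL1028Contig9 had log2 fold changes of -0.14 and 0.50 in slight TPD trees with ethephon and of 0.62 and 1.32 in dry PB217 trees, not called in either (adjusted p = 0.56, 0.086, 0.20 and 0.099 from edgeR), though the exact test, DESeq2 and the fit over all PB217 libraries called CL1028Contig9 in dry trees. Among PB217 control trees, CL1028Contig4 was 1.27 and CL1028Contig9 1.76 higher on the log2 scale at month 36 than at month 1 (adjusted p = 0.0019 and 0.0020 from edgeR, where 35.3% of contigs were called), and among ethephon trees 1.64 and 2.97 higher (adjusted p = 0.0084 and 0.0023, where 24.1% of contigs were called). CL1028Contig8 had a log2 fold change of -0.62 between the control trees. CL1028Contig4 was lower in PB217 than in PB260 control trees, with a log2 fold change of -0.92 ± 0.21 (adjusted p = 0.0093 from edgeR, where 29.2% of contigs were called), a call lost without PB217 control replicate 3. Dry PB217 replicate 2 was the highest of its group for CL1028Contig4, CL1028Contig7, CL1028Contig8 and CL1028Contig9, at 10.5, 33.6, 23.3 and 22.3 CPM.

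**Figure D5:**
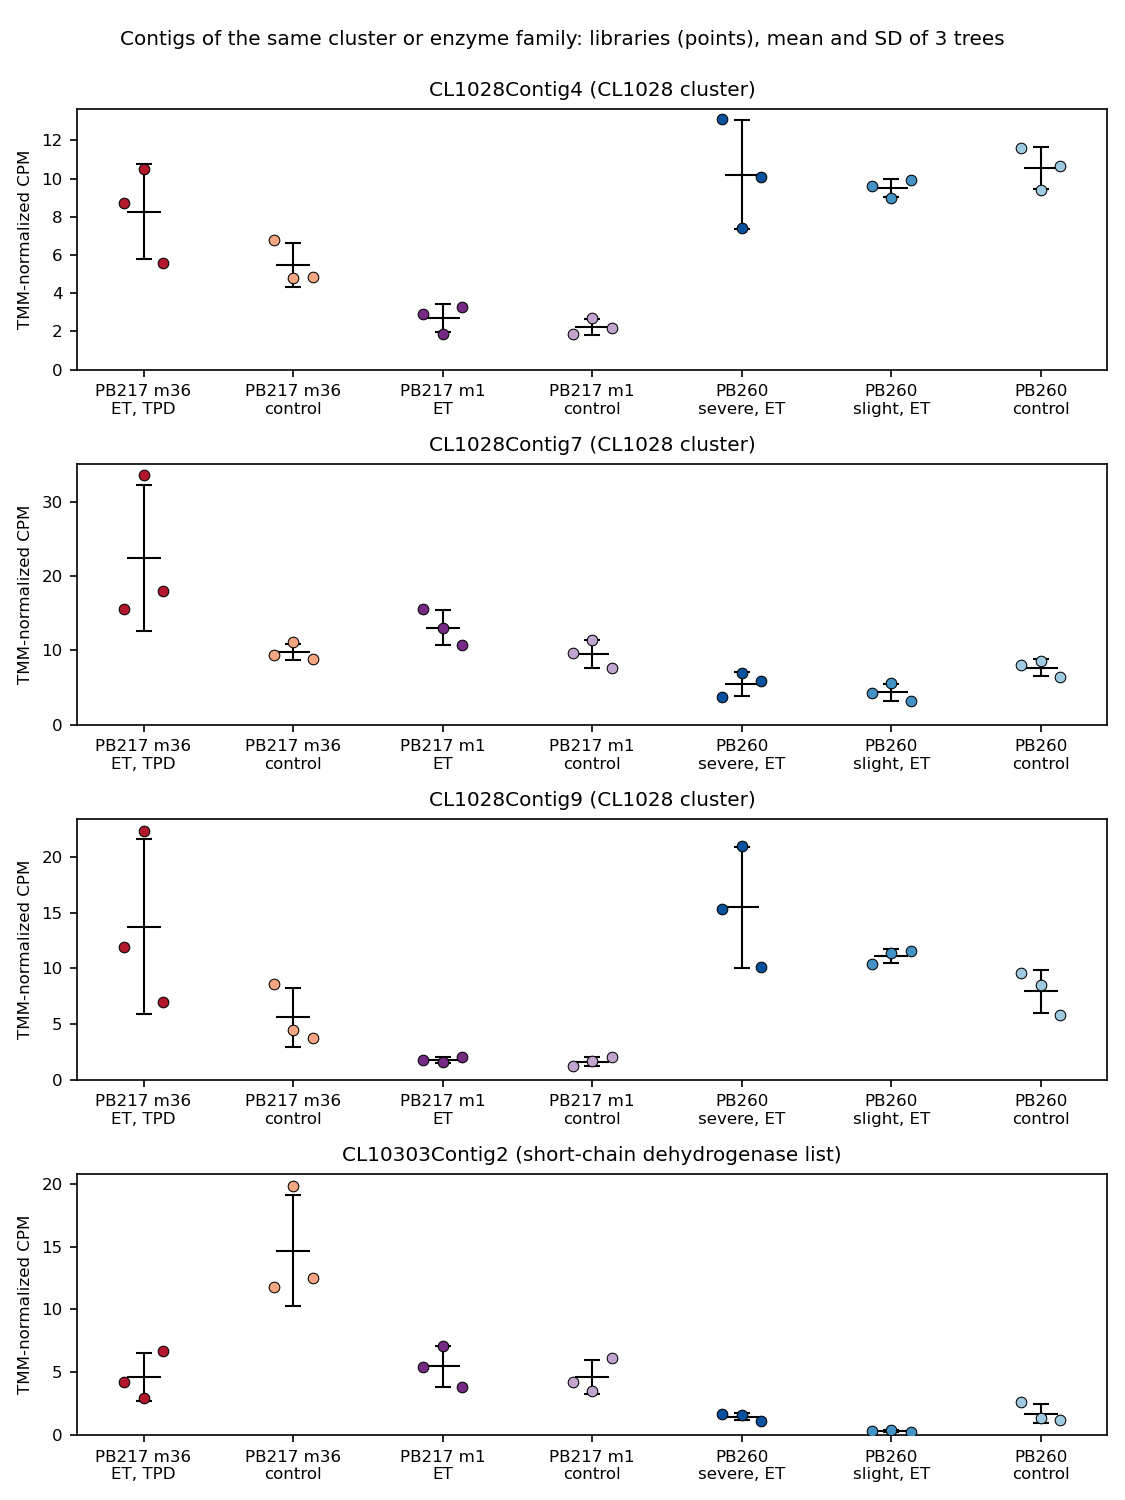
TMM-normalized CPM of CL1028Contig4, CL1028Contig7, CL1028Contig9 and CL10303Contig2 in each of the 21 libraries, by group (ET, ethephon; m1 and m36, months of tapping); points are trees and bars are the mean and SD of 3 trees. CL10303Contig2 stood at 11.8 to 19.8 CPM in PB217 control trees of month 36 and at 0.226 to 0.402 CPM in slight TPD trees of PB260 with ethephon. Over the 21 libraries, the Pearson correlation of log2 levels with CL1028Contig8 was 0.71 for CL1028Contig9, 0.59 for CL1028Contig4 and -0.36 for CL1028Contig7.

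Likeness over the 21 libraries was measured by Pearson correlation of log2 CPM among 34213 contigs, as a description. The 5 contigs most like CL1028Contig8 were CL1Contig15984 (0.96), CL6193Contig2 (0.95), CL1Contig18917 (0.95), CL3258Contig5 (0.95) and CL3086Contig1 (0.95), and annotation was held for none of them. Above 0.9 stood 169 contigs. Among the 318 contigs with an informative annotation, the nearest were CL6558Contig2, similar to an SNF2 helicase, at rank 46 (0.92), CL29955Contig1, similar to a type I inositol polyphosphate 5-phosphatase (0.91), and CL10331Contig1, of an auxin-responsive family (0.91). CL10740Contig1 had no contig above 0.9, and its nearest were CL24231Contig1 (0.90), CL1Contig6745 (0.88), CL9773Contig2 (0.88), CL7129Contig3 (0.86) and CL8502Contig1 (0.85), none with an annotation held. The nearest annotated ones were CL10882Contig1, similar to the auxin-induced protein 5NG4, at rank 223 (0.76), CL10498Contig1, a leucine-rich repeat protein (0.75), and CL575Contig5, a respiratory burst oxidase of the kind that makes superoxide at the plasma membrane (0.75). Part of the held annotation covers contigs that the study listed for their rise with ethephon, so the annotated contigs are not a sample of all contigs, and the libraries share clones, harvest days and depth.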

How the data were processed

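Latex RNA libraries (polyA-selected, stranded, paired-end) of 21 trees were analysed. The authors used the fastx toolkit for trimming, discarded ribosomal reads, mapped with Bowtie2 in local mode (the submitters' processing notes also name TopHat2), and deposited raw counts of read pairs with both mates on 1 contig, multi-hits removed. From these counts, each comparison was fitted on its 6 libraries (differences between responses on 12), keeping contigs whose CPM reached 1 in 3 or more libraries, with TMM, edgeR 4.0.16's quasi-likelihood F test (R 4.3.3), prior count 0.125, and Benjamini-Hochberg adjusted p under 0.05 over all contigs tested. Both contigs and all lists were chosen with earlier results of these data known. The rule named every tested short-chain dehydrogenase, FAD-linked oxidase and CL1028 contig, oxidoreductases called in slight TPD trees with ethephon against control, and the 5 contigs nearest in correlation plus 3 annotated ones. Lists came from annotation held for part of the contigs, so families are incomplete. Alternatives were DESeq2 1.42.0 size factors and Wald test, no filter, edgeR's exact test, wider fits, the replicate number as a block, leave-one-out, library totals, Spearman correlation and group means. No 2 libraries of a group agreed within sampling noise. The test was checked on simulated data. The contigs were not matched to the RefSeq gene table, which was not used here.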

Additional observations from a re-analysis of the deposited data

Results flagged for a closer look

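The fold change of ethephon over control trees in PB217 differed between months for 2 contigs of the oxidoreductase list. This was a test of the difference itself, with 12 libraries in the fit. At month 36 the ethephon trees were also dry and harvested on another day than control trees. Ethephon, months of tapping, dryness and harvest day therefore cannot be told apart in this difference. CL10303Contig2 had a log2 difference of -1.91 (month 36 minus month 1, adjusted p = 0.034 from edgeR) and CL1037Contig4 of -1.17 (adjusted p = 0.037), in a comparison that called 6.58% of contigs. Both calls were lost in 9 of 12 fits with a library left out. For CL1028Contig8 and CL10740Contig1 this difference was fitted as a description, and no test of it is given.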

How the results depend on the processing

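With DESeq2 size factors or its Wald test, edgeR's exact test, no filter and wider fits, the fold changes of CL1028Contig8 and CL10740Contig1 kept their direction in all comparisons. Leaving out single libraries gave -0.35 to 0.58 for CL10740Contig1 in severe over slight TPD trees, 1.21 to 2.16 in severe TPD over control trees, and 1.27 to 1.90 for CL1028Contig8 in the difference between months in PB217. The cause was not tested. On library totals, CL1028Contig8 averaged 5.84 CPM in PB217 ethephon trees of month 1 and 35.1 CPM in slight TPD trees with ethephon, and 12 of 14 group means moved by less than 1 SD. Of the 5 contigs most like each, 2 were shared with Spearman correlation and 0 with group means.

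Deviations of same-numbered trees from their group means had correlations between -0.272 and 0.433, and in no comparison did every tree correlate best with its own number. In severe over slight TPD trees the correlations were 0.0555 to 0.277, and 2 of 3 trees correlated best with their own number. Between ethephon trees of PB217 they were -0.272 to 0.00443, and 0 trees did so. Whether the numbers pair the trees was therefore not settled, and the main fits used no pairing. With the replicate number as a block, the largest move was to 1.74 for CL10740Contig1 in severe TPD over control trees. The block called 88 contigs against 40 in severe over slight TPD trees, 6 against 0 at month 1, 4156 against 6943 between ethephon trees of PB217, 1363 against 2906 between dry PB217 and severe TPD trees, and CL10303Contig2 was not called in the difference between months (adjusted p = 0.054 from edgeR).

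Counts of called contigs moved more than the fold changes. Over all settings they ranged from 5154 to 9006 for slight TPD trees with ethephon over control (8436 as reported), 0 to 752 for severe over slight TPD (40), 1005 to 5448 for severe TPD over control (3439), 0 to 464 at month 1 (0), 0 to 7024 for dry over control trees of PB217 (2604), 6554 to 11888 between control trees of both months (9831), 2364 to 10572 between ethephon trees of both months (6943), 4758 to 11310 between control trees of the clones (8595), 1202 to 8173 between their dry trees (2906) and 410 to 5363 for the difference between months (2013). The lowest count for dry PB217 trees came without control replicate 3 and the highest with all PB217 libraries in the fit. CL1028Contig7 was not called in slight TPD trees with ethephon when all PB260 libraries were fitted (adjusted p = 0.057 from edgeR). The 3 trees a group and the 20 to 30 pairs of CL10740Contig1 in PB260 control trees limit the precision of its values.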
